A study of Saccharomyces cerevisiae with 4 samples.

Results

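Complex III, the cytochrome bc1 complex, is built in budding yeast (Saccharomyces cerevisiae) from 9 subunits encoded in the nucleus and from cytochrome b, encoded in mitochondrial DNA. The 9 nuclear genes were taken by name from the deposited expression table: COR1, QCR2, QCR6, QCR7, QCR8, QCR9, QCR10, CYT1 and RIP1. Each had 1 row, 9 of 6720 rows with a gene ID, and each row lay at the position of the gene of that name in the R64 assembly, with an intact reading frame there. All 9 passed the filter on low values. Total RNA of a wild-type strain was sequenced in 4 libraries, 2 biological replicates (A and B) of each of 2 conditions. The non-restricted group (NR) grew in synthetic complete medium holding 2% glucose and the calorie-restricted group (CR) in the same medium holding 0.05% glucose, both at 30 °C, with no deletion or drug named for either. Strain background, growth phase and harvest density are not stated in the labels. Levels are in FPKM, that is, sequenced fragments per kilobase of a gene, scaled by the total mapped in that library.

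Complex III takes electrons from reduced ubiquinone and passes them to cytochrome c while moving protons across the inner mitochondrial membrane. Electrons pass through the Rieske iron-sulfur protein Rip1 and cytochrome c1 (Cyt1) on their way to cytochrome c, and through the haems of cytochrome b. Yeast that ferments glucose keeps many respiratory genes low, and the Hap2, Hap3, Hap4 and Hap5 complex, which binds CCAAT boxes, activates many of them when glucose is scarce. Hap1, which responds to haem, activates another set of respiratory genes.

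The windows from 350 to 51 bases before the start codon are shown for the 4 genes that rose in CR and for CYT1, which had the lowest fold, so that the upstream letters can be read beside the values. They are printed 5′ to 3′ on the coding strand, from RefSeq R64, with each CCAAT box of either strand (CCAAT or ATTGG) in capitals. The QCR2 window is chrXVI:919031-919330 (plus strand), that of QCR8 chrX:106084-106383 (plus), that of QCR6 chrVI:224820-225119 (minus), that of RIP1 chrV:106910-107209 (plus) and that of CYT1 chrXV:447089-447388 (plus).
QCR2: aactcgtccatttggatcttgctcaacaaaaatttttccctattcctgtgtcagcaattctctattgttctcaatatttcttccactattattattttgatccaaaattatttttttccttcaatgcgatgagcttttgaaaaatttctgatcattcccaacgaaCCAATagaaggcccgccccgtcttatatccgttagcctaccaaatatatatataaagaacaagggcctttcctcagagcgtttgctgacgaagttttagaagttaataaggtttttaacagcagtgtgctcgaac
QCR8: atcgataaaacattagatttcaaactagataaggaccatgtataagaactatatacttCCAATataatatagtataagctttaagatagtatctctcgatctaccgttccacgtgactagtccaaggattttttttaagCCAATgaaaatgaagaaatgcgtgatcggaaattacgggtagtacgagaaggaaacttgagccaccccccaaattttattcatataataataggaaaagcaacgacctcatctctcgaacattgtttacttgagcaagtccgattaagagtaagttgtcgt
QCR6: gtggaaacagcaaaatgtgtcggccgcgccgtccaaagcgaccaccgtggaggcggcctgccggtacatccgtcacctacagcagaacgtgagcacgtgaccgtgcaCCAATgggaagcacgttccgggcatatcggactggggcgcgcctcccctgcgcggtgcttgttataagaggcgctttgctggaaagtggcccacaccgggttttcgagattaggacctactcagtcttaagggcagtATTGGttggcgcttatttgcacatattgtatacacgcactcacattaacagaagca
RIP1: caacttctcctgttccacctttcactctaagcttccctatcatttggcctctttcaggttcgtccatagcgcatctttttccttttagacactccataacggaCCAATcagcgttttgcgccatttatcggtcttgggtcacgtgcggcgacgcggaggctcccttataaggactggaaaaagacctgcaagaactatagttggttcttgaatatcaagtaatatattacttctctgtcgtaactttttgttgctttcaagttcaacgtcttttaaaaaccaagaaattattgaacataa
CYT1: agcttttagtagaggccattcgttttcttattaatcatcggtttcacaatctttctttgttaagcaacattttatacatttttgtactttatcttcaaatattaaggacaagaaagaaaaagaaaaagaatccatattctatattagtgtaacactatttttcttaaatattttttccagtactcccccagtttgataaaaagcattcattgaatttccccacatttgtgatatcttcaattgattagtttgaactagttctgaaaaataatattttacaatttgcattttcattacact

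A CCAAT box was found in the windows of 8 of the 9 genes, against 42.9% of 6001 windows of the same length and position before nuclear protein-coding genes. CYT1 was the gene without a match, which says only that these letters are not in this window. The longer form TNATTGGT, which contains the box, matched in QCR7 and RIP1, and in 5.07% of all windows. The consensus of Hap1, read as CGG, 3 free bases, TA, 1 free base and CGG, matched at 290 and 225 bases before the start of QCR6 and in 10 of the 6001 windows. Both strands were searched for each motif, and a match is not evidence of binding. The boxes of the 4 genes that rose lay 185 bases before the start codon in QCR2, 292 and 211 in QCR8, 243 and 106 in QCR6, and 247 in RIP1. Genes that did not pass the test had boxes as well, at 181 bases in QCR7, 207 in QCR9 and 199 in QCR10, and at 350 and 339 in COR1. Distances are those of the 5′ base of the box on the coding strand.

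**Figure D1:**
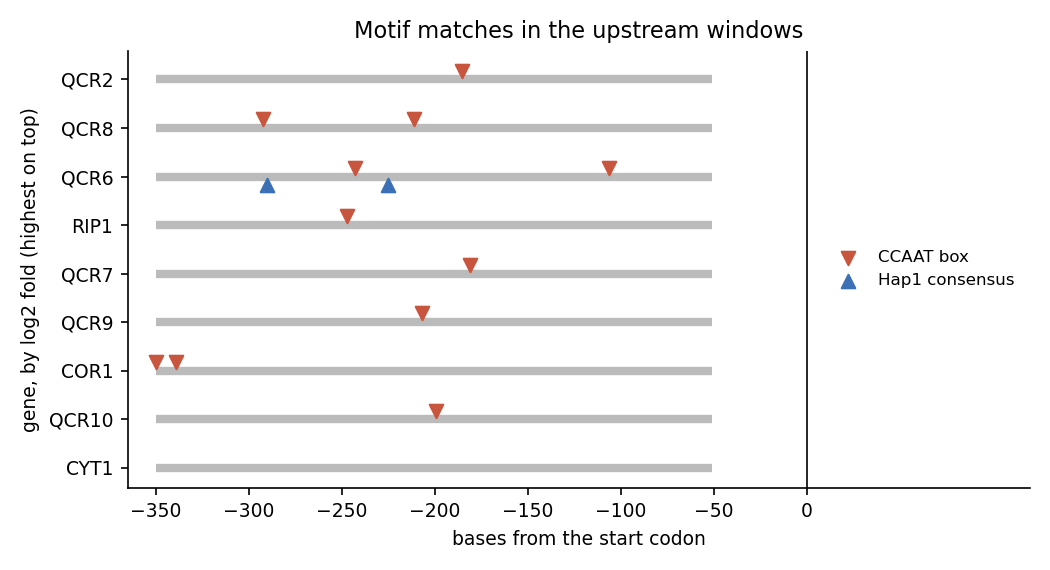
Matches to the CCAAT box (red) and to the Hap1 consensus (blue) in the windows from 350 to 51 bases before the start codon (grey bars) of the 9 genes, ordered by log2 fold in CR against NR. The x axis is the distance in bases from the start codon; CYT1 has no match, and the Hap1 consensus matches in QCR6.

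The comparison of CR with NR asked which complex III transcripts differ when glucose is restricted. In CR, 4 of the 9 genes rose: QCR2 4.19-fold, QCR8 2.84-fold, QCR6 2.19-fold and RIP1 1.97-fold. QCR7 and QCR9 were 1.58 and 1.42 times their NR means without passing the test, and COR1, QCR10 and CYT1 were at 1.19, 0.889 and 0.810 times theirs. None of the 9 passed as lower. Of all 6355 genes tested, 17.7% were called higher and 13.2% lower, and the median log2 fold was 0.06, against 0.65 over the 9 genes. Calls are two-sided limma tests at an adjusted p of 0.05 (Benjamini-Hochberg over the 6355 genes), fitted to log2(FPKM + 1), and each log2 fold is of FPKM + 1, so that folds of low genes come out too small. Errors are SDs over 2 replicates unless an SE is named. Both CR libraries lay above both NR libraries in 6 of the 9 genes and in 39.2% of the genes tested, and below them in 0 of the 9 and in 33.8% of the genes tested. Because RNA came from whole cultures, a change in some cells and a change in RNA per cell cannot be told apart.

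**Figure D2:**
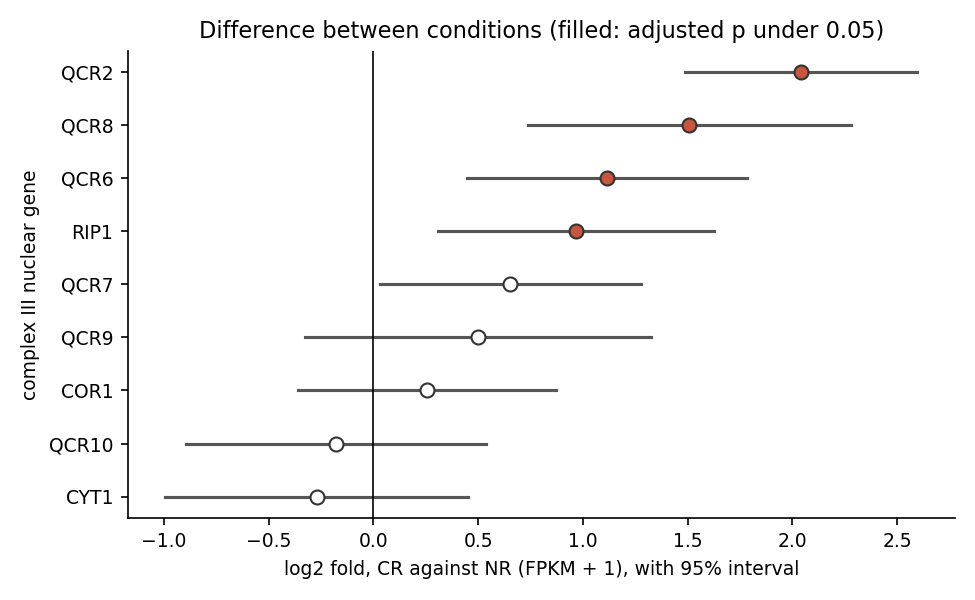
Log2 fold of FPKM + 1 in CR against NR for the 9 genes (points) with unadjusted 95% intervals from the limma fit (lines); filled points passed at an adjusted p under 0.05. The 4 filled genes run from 0.97 (RIP1) to 2.04 (QCR2), and the intervals of COR1, QCR9, QCR10 and CYT1 include 0.

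Libraries differed in ways the groups do not explain. Rows without a gene ID held 87.2% of all FPKM in CR B, against 27.4% to 34.0% in the other libraries. The median of gene rows still lay between 48.6 and 57.6 FPKM in all 4 libraries. The replicate SD pooled over genes was 0.27 (log2) for NR but 0.45 for CR. When a CR library is left out, the spread is estimated from NR alone, the group with the smaller SD. Calls gained in those fits are not by themselves a sign of a larger difference. Without CR B, QCR7 also passed, making 5 genes, and without CR A the number was 4. With either NR library left out it was 0, the spread being then estimated from CR alone. Without NR A and without NR B the log2 fold was 1.94 (adjusted p = 0.084) and 2.14 (adjusted p = 0.055) for QCR2, 1.27 and 1.75 for QCR8, 0.077 and 0.43 for COR1, and -0.58 and 0.037 for CYT1. The counts over all genes fell too, to 72 higher and 44 lower without NR A and 123 and 111 without NR B.

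The catalytic nuclear subunits are the Rieske protein and cytochrome c1. RIP1 (V, 107260 to 107907, R64 coordinates here and below, 1 coding exon) gave 91.8 and 117 FPKM in NR replicates A and B, against 239 and 173 FPKM in CR replicates A and B. Both CR libraries were above both NR libraries, and the log2 fold was 0.97 (SE 0.26, adjusted p = 0.044). That call was the one nearest to the threshold. Among the fits with no replicate block it was lost under median scaling (0.84, adjusted p = 0.058), after quantile normalization (0.81, adjusted p = 0.061), without the filter on low values (adjusted p = 0.076), without NR A (adjusted p = 0.31) and without NR B (adjusted p = 0.17). CYT1 (XV, 447439 to 448368, 1 coding exon) gave 464 and 712 FPKM in NR replicates A and B, against 493 and 460.0 FPKM in CR replicates A and B. Here the groups overlapped, with NR B the high library. The log2 fold of CYT1 was -0.27 with a 95% interval from -0.99 to 0.45 (adjusted p = 0.49), and it was 0.037 without NR B. In NR, RIP1 was thus at 0.198 and 0.164 of the level of CYT1 in A and B, and in CR at 0.485 and 0.376.

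The core subunits Cor1 and Qcr2 face the matrix and belong to the protein family of the mitochondrial processing peptidase. QCR2 (XVI, 919381 to 920487, 1 coding exon) gave 49.2 and 56.8 FPKM in NR replicates A and B, against 246 and 198 FPKM in CR replicates A and B. It was the lowest of the 9 genes in both NR libraries, and its CR values were far above them. The log2 fold of QCR2 was 2.04 (SE 0.22, adjusted p = 0.0058), higher than that of 96.7% of the genes tested. COR1 (II, 134143 to 135516, 1 coding exon) gave 344 and 441 FPKM in NR replicates A and B, against 502 and 432 FPKM in CR replicates A and B. The groups overlapped, as CR B was below NR B. The log2 fold of COR1 was 0.26 with an interval from -0.36 to 0.87 (adjusted p = 0.45). The level of QCR2 per level of COR1, a ratio that library scaling does not move, was 0.143 and 0.129 in NR A and B and 0.491 and 0.459 in CR A and B. An exact permutation test of this ratio, two-sided, gave p = 0.333, the smallest that 2 against 2 libraries allow.

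Qcr7 and Qcr8 bind cytochrome b and join it early in assembly. QCR8 (X, 106434 to 106718, 1 coding exon) gave 447 and 622 FPKM in NR replicates A and B, against 1277 and 1764 FPKM in CR replicates A and B. The CR values were above the NR values, and CR B was the highest, unlike in the other 3 genes that rose, where CR A was. The log2 fold of QCR8 was 1.51 (SE 0.30, adjusted p = 0.022, and 0.21 and 0.11 without NR A and NR B). QCR7 (IV, 1496165 to 1496548, 1 coding exon) gave 922 and 980.2 FPKM in NR replicates A and B, against 1618 and 1382 FPKM in CR replicates A and B. The groups of QCR7 did not overlap either, but its log2 fold of 0.65 had an interval from 0.03 to 1.28 and did not pass (adjusted p = 0.10). QCR7 passed without CR B (0.77, adjusted p = 0.021) and with libraries scaled to a common sum of gene rows (0.74, adjusted p = 0.046), and in none of the other 12 alternative fits.

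Qcr6 is an acidic protein that lies next to cytochrome c1. QCR6 (VI, 224326 to 224769, 1 coding exon) gave 649 and 723 FPKM in NR replicates A and B, against 1705 and 1296 FPKM in CR replicates A and B. The CR libraries were above the NR libraries, and the log2 fold was 1.12 (SE 0.26, adjusted p = 0.032). Among the fits with no replicate block that call was lost without NR A (adjusted p = 0.27) and without NR B (adjusted p = 0.20). Its level per level of CYT1 was 1.40 and 1.02 in NR A and B and 3.45 and 2.82 in CR A and B. QCR6 was the only 1 of the 9 with a match to the Hap1 consensus in the window shown above. HAP1 itself, at 69.6 ± 11.0 FPKM under NR and 67.9 ± 9.13 FPKM under CR (mean ± SD, n = 2), was not called (adjusted p = 0.92).

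Qcr9 and Qcr10 are small subunits with a membrane-spanning stretch, and theirs are the 2 genes of the 9 with an intron. QCR9 (VII, 859063 to 859476) gave 5968 and 6673 FPKM in NR replicates A and B, against 9724 and 8174 FPKM in CR replicates A and B. Both CR libraries were above both NR libraries, by a log2 fold of 0.50 with an interval from -0.33 to 1.33 (adjusted p = 0.28), and QCR9 passed in none of the 14 alternative fits. QCR10 (VIII, 107826 to 108122) gave 1112 and 1349 FPKM in NR replicates A and B, against 1258 and 928 FPKM in CR replicates A and B. Its groups overlapped. The log2 fold of QCR10 was -0.18 with an interval from -0.90 to 0.54 (adjusted p = 0.64), from 0.039 in CR A to -0.40 in CR B against the NR mean.

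Both introns are shown because the rows span them, which bears on how far these 2 levels can be read. The first coding exon of QCR9 holds 3 bases, the start codon alone, and that of QCR10 holds 6. The intron of QCR9 is 213 bases long (chrVII:859261-859473, minus strand) and that of QCR10 is 63 bases long (chrVIII:107832-107894, plus strand). Capitals mark the first 6 bases with the 5′ splice site, the branch site TACTAAC and the last 2 bases.
QCR9: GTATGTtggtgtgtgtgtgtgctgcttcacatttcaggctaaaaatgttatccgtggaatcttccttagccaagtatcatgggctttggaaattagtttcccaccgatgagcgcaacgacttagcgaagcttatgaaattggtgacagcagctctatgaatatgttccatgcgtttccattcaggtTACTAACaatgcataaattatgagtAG
QCR10: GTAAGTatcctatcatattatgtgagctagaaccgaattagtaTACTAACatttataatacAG

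The row of QCR9 spans 414 bases, 2.06 times its 201 coding bases, and that of QCR10 spans 297, 1.27 times its 234. The length behind the FPKM is not given in the sources. If the 201 coding bases were used, the level of QCR9 per spanned base would be 3068 FPKM in NR and 4345 in CR, still above every other of the 9 genes. The choice of length does not touch the fold between conditions.

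Levels differed more between subunits than between conditions. In NR the order from high to low was QCR9, QCR10, QCR7, QCR6, CYT1, QCR8, COR1, RIP1 and QCR2, with the replicates of QCR6 and CYT1 and those of CYT1 and QCR8 overlapping. In CR the order was QCR9, QCR8, QCR6, QCR7, QCR10, CYT1, COR1, QCR2 and RIP1, with overlap between QCR8 and QCR6, QCR6 and QCR7, CYT1 and COR1, and QCR2 and RIP1. QCR9 alone held 58.2% of the summed FPKM of the 9 genes in NR and 56.2% in CR. The highest mean was 119 times the lowest in NR and 43.4 times in CR, and leaving out QCR9 these ratios were 23.2 and 7.38. Genes with shorter coding sequences had higher FPKM (Spearman's rho of -0.80 in NR and -0.77 in CR over the 9 genes, which share their libraries and are not independent). The part of length in these levels was not tested. Coding length ran from 201 bases in QCR9 to 1374 in COR1, and its rho with the log2 fold was 0.07.

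**Figure D3:**
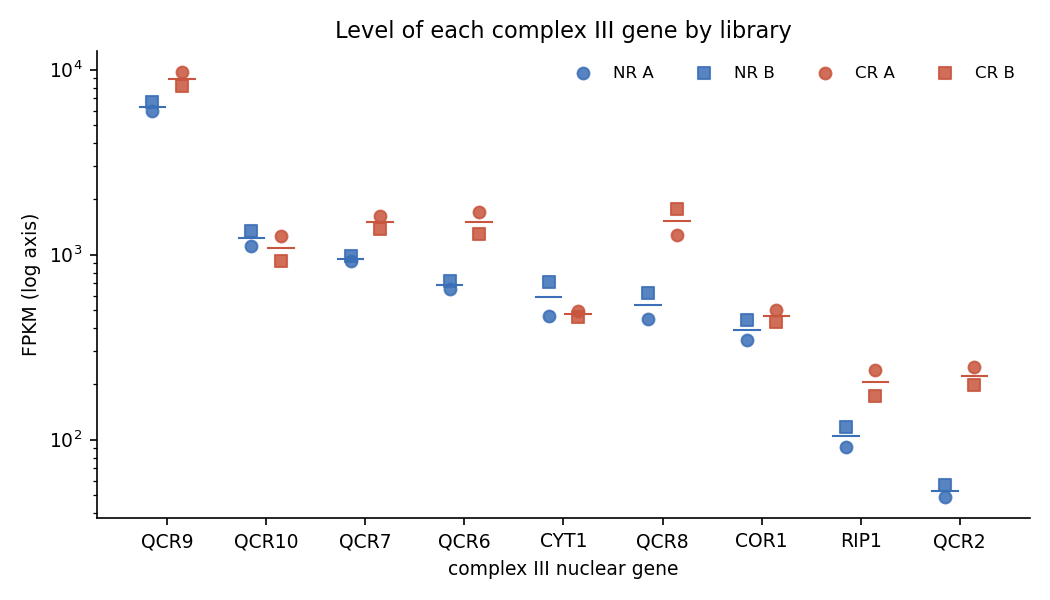
FPKM (log axis) of the 9 genes in each library, ordered by NR mean; circles are replicate A and squares replicate B, blue is NR and red is CR, and short lines are group means of 2 libraries. QCR9 stands above all others at 5968 to 9724 FPKM, and QCR2 and RIP1, the lowest in NR, have their red points above their blue points.

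Each level was also set against the mean log2(FPKM + 1) of the 9 genes in the same library, which removes library scaling. On this scale QCR2 went from -3.25 and -3.35 in NR A and B to -1.94 and -2.04 in CR A and B. QCR8 went from -0.10 and 0.08 to 0.43 and 1.11. CYT1 went the other way, from -0.04 and 0.27 to -0.94 and -0.83, and QCR10 from 1.21 and 1.195 to 0.40 and 0.18. QCR7 moved least, with a difference of -0.08 and overlapping groups. These values are relative to the 9 genes, so a rise in some sets others lower by construction.

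**Figure D4:**
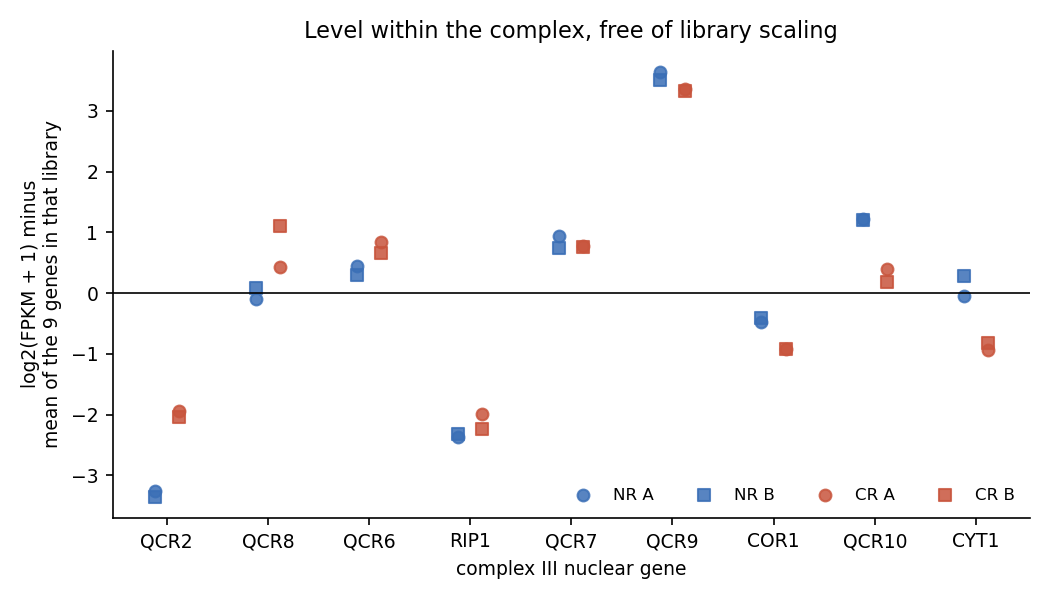
Log2(FPKM + 1) of each gene minus the mean of the 9 genes in the same library; colours and symbols stand for conditions (blue NR, red CR) and replicates (circle A, square B). QCR2 differs by 1.31 between the condition means and QCR10 by -0.91, with replicates close together beside these differences.

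Cytochrome b, the mitochondrially encoded subunit, could not be compared. Its row, COB, was listed at 0.644 and 0.277 FPKM in the NR replicates A and B and 0.399 and 0.269 FPKM in the CR replicates, under the filter of a mean of 1 FPKM, and it overlaps the rows of 3 reading frames in its introns. Genes for its expression and for the assembly of complex III were tested, and 3 of 12 rose and none fell, a share near the 17.7% called higher over all genes, with a median log2 fold of 0.53. Without NR A the number was 0 and without NR B it was 1, whereas it was 6 without CR B and 5 with a common sum of gene rows. CBP4, an assembly factor of cytochrome b, gave 49.5 and 54.7 FPKM in the NR replicates A and B and 225.007 and 224.928 in the CR replicates, a log2 fold of 2.09 (SE 0.19, adjusted p = 0.0044). CBP3, which encodes a chaperone that binds newly made cytochrome b, rose 2.02-fold (adjusted p = 0.021). The call of CBP3 was lost without either NR library, and that of CBP4 without NR A. CBS2, a translational activator of COB, rose 1.62-fold (adjusted p = 0.045). That call was lost under median scaling, after quantile normalization, without the filter, without the intensity trend and without either NR library. CYT2, the haem lyase of cytochrome c1, gave 87.2 and 105 FPKM in the NR replicates and 122 and 52.8 in the CR replicates, with no call (adjusted p = 0.67). It passed as lower without CR A (log2 fold -0.84) and was 0.35 without CR B. In a list of 3 precursor peptidase genes, OCT1, which trims the Rieske precursor among others, rose from 13.6 ± 1.47 to 23.8 ± 0.794 FPKM (adjusted p = 0.044). This call was lost under median scaling (adjusted p = 0.052) and without the filter (adjusted p = 0.058), and likewise without either NR library. The other genes of that list, MAS1 (log2 fold 0.58, adjusted p = 0.084) and MAS2 (0.11, adjusted p = 0.77), were not called.

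Most listed genes of dehydrogenases, complex II, complex IV and ATP synthase rose as well. The cytochrome c list, described below, had no call. All 6 listed genes for dehydrogenases that feed electrons to ubiquinone or straight to cytochrome c rose, with a median log2 fold of 2.72. CYB2, the lactate dehydrogenase that reduces cytochrome c, had a log2 fold of 4.86 (SE 0.23, adjusted p = 0.0011), from 16.5 ± 1.73 FPKM under NR up to 509.8 ± 90.2 under CR. NDE2, an external NADH dehydrogenase gene, rose 10.4-fold, and GUT2, the glycerol-3-phosphate dehydrogenase gene, 8.17-fold. Of complex II genes 3 of 4 rose (median 1.16), of nuclear complex IV genes 7 of 9 (median 1.17) and of ATP synthase genes 9 of 14 (median 1.24), with none lower in any of these lists. Over all genes tested, 17.7% were called higher and 13.2% lower, and the median log2 fold was 0.06. SDH4 rose 3.16-fold, COX7 3.15-fold and TIM11 3.90-fold. The differences between these lists and complex III were not tested. With either NR library left out, 3 of the 6 dehydrogenase genes were called and none of the complex II, complex IV or ATP synthase genes, whereas without CR B all 14 ATP synthase genes were. The coordinates of the COX4 row are not identical to those of the R64 gene of that name.

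**Figure D5:**
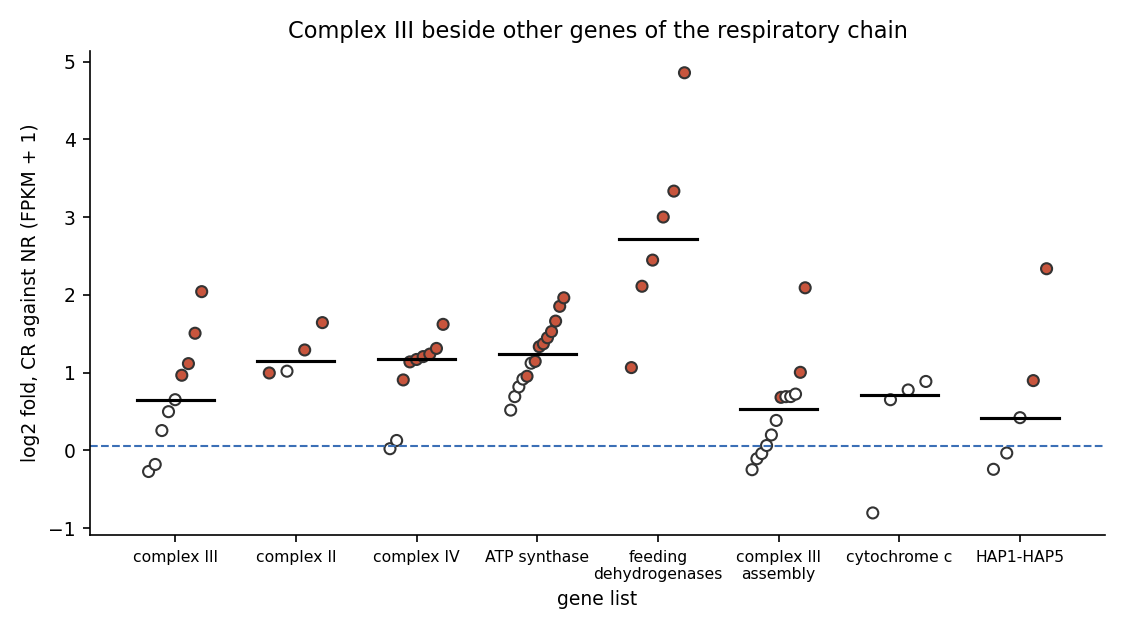
Log2 fold of FPKM + 1 in CR against NR for each tested gene (points) of complex III and of 7 related lists; black lines are list medians, the dashed line is the median of all genes tested, and filled points passed as higher. The median of complex III is 0.65, against 1.16 to 1.24 for complex II, complex IV and ATP synthase.

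Cytochrome c, which receives the electrons, had no call in its list of 4 genes for the protein and its haem attachment in limma, with an adjusted p under 0.05 in none and an unadjusted p under 0.05 in 3. CYC1, which encodes an isoform of the protein, gave 229 and 232 FPKM in the NR replicates and 167 and 103 in the CR replicates. Its log2 fold was -0.80 (adjusted p = 0.087). CYC7, the other isoform, gave 151 and 219 FPKM in the NR replicates and 330 and 346 in the CR replicates, a log2 fold of 0.89 (adjusted p = 0.052). CYC1 was called lower after quantile normalization (-0.94), under median scaling (-0.93) and without CR A (-1.15), and CYC7 as higher without either CR library, with a common sum of gene rows and among rows at their R64 position. AIM31, also known as RCF1 and needed for supercomplexes of complexes III and IV, rose 2.82-fold (adjusted p = 0.015), a call lost without either NR library. Its log2 fold was 1.32 without NR A and 1.64 without NR B. AIM38, listed beside it, gave 108 and 101 FPKM in the NR replicates and 128 and 71.1 in the CR replicates. The groups of AIM38 overlapped, and its log2 fold of -0.13 was not called (adjusted p = 0.78).

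Of the 5 HAP genes, 2 rose, where 17.7% of all genes tested were called higher. HAP2, a DNA-binding subunit of the CCAAT-binding complex, gave 14.6 and 13.9 FPKM in the NR replicates and 77.7 and 74.3 in the CR replicates, a log2 fold of 2.34 (SE 0.19, adjusted p = 0.0030). HAP5, another such subunit, rose 1.90-fold (adjusted p = 0.038, and 0.069 without the filter). HAP3, the remaining DNA-binding subunit, named after its values were seen, gave 171 and 135 FPKM in the NR replicates and 197 and 83.6 in the CR replicates, a log2 fold of -0.24 with no call (adjusted p = 0.69). HAP4, the activating subunit, gave 133 and 119 FPKM in the NR replicates and 208 and 137 in the CR replicates, and its log2 fold of 0.42 did not pass (adjusted p = 0.27), although it did without CR B (0.72). Without NR A neither HAP2 (adjusted p = 0.051) nor HAP5 was called, and without NR B HAP5 was not. No binding of these proteins was measured.

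The 5 genes whose course over the 4 libraries was nearest to the mean course of the 9 were YOR029W, YEF1, YOL164W-A, PEX13 and GSF2, at Euclidean distances of 0.03 to 0.06 between log2(FPKM + 1) values centred on each gene's mean. The nearest of the 9 genes to their own mean was QCR7, at 0.17, and the farthest QCR2, at 1.31, and 49 other genes were nearer to it than QCR7. Among 6355 genes and 4 libraries such closeness is a description only. PEX13 had a log2 fold of 0.72 (adjusted p = 0.049), lost under median scaling, after quantile normalization, without the filter, without the intensity trend and without either NR library among the fits with no replicate block, and the other 4 did not pass.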

How the data were processed

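The authors deposited 1 table of FPKM with 1 column per library. The tools named in the submitters' processing notes are CASAVA 1.8.2, Cufflinks 2.0.2 and Bowtie, the last without a version, and the build is sacCer2. Of 6025 gene IDs found in RefSeq R64, 5989 had the R64 position, the 9 complex III genes among them, so R64 was used. Libraries were made with a small RNA kit from fragmented RNA, per the labels. Strand use is not given. All 4 columns were matched by name and 0 were left over. Read totals were not used, and low FPKM values showed no clean step per fragment, so depth is unknown.

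The fit of CR against NR used limma 3.58.1 (R 4.3.3) with an intensity trend on log2(FPKM + 1), over 6355 gene rows whose mean reached 1 FPKM. It was run on simulated data with planted changes larger than those of the 9 genes and the same spread for every gene. That run does not show how the fit handles smaller changes or a wider spread in CR. Python 3.11.15, pandas 2.3.3, NumPy 2.4.6, SciPy 1.17.1 and matplotlib 3.10.9 did the rest. Every 32-base stretch of the 9 rows was unique in R64, and no other gene row overlapped them. The deposited name of OCT1 had become a date and was restored by gene ID. The members and lists were chosen with earlier results of these data known. Named genes were the 9, COB, HAP4, CYC1, CYT2 and the 5 nearest in course. Each list gave up to 3 called genes with the smallest adjusted p (or the 2 most abundant). HAP1, HAP3, the ratios between subunits and the motif search were added after values were seen. MAS1, MAS2, AIM38 and COX4 are also named outside that rule. Alternatives were other pseudocounts (0.1 and 5), filters (none, or a mean of 10 FPKM), median scaling, a block for the replicate letter, quantile normalization, no trend and leaving out each library. Added after seeing the data were scaling to a common sum of gene rows and rows at their R64 position.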

Additional observations from a re-analysis of the deposited data

How the results depend on the processing

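QCR2, QCR6 and QCR8 stayed called under every alternative that kept all 4 libraries, except that QCR6 lost its call under the replicate block (adjusted p = 0.057), as did RIP1 (0.053) and, among the other named genes, SDH2 and PEX13 (each 0.054). With the replicate letter as a block 2 of the 9 genes were called instead of 4. The letters gave no sign of pairing (correlation of the A minus B differences in NR and CR 0.08). Leaving out each library in turn gave 0 to 5 called members, 72 to 1632 genes called higher over all genes and 44 to 1656 called lower, with 0 members called lower throughout. Without the filter 464 genes were lower, against 836. The log2 fold of QCR10 ran from -0.40 to 0.039 over these 4 fits, that of CYT1 from -0.58 to 0.037 and that of CYT2 from -0.84 to 0.35, and the cause was not tested. Under median scaling the log2 fold of the median gene shifted by -0.13. Higher calls made up 57.4% of all calls as deposited, 44.9% under median scaling and 49.3% after quantile normalization. With 2 libraries a group, differences the size of that of QCR7 lie near the limit of the test, and the depth behind each value is unknown.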
